A study of Mus musculus with 4 samples.

Results

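The CCR4-NOT complex is the main cytoplasmic deadenylase of mammalian cells, and its 10 core subunit genes were described here in naive CD4 T cells of mice. The genes were Cnot1, Cnot2, Cnot3, Cnot6, Cnot6l, Cnot7, Cnot8, Cnot9, Cnot10 and Cnot11, taken by name from 48858 genes to which the deposited transcripts could be summed. RNA was sequenced from 2 wild-type (WT) and 2 double-knockout (DKO) libraries of rRNA-depleted total RNA. All mice carried loxP-flanked Btg1 and Btg2 (Btg1f/f Btg2f/f), the WT mice being littermates without recombinase and the DKO mice carrying CD4-Cre in addition, which deletes the alleles in the T cell lineage. CD4-Cre is known to act from the thymus onward, so deletion is expected to precede the naive stage. The cells had been sorted as TCRb+CD4+CD25-CD62LhiCD44low, and neither the age of the mice nor any treatment of them is given in the sources used here. The labels name pairs of WT and DKO mice but do not say how animals map to libraries, so p-values measure the spread between these 4 libraries.

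As background, messenger RNAs end in a poly(A) tail, and its shortening is usually the first step of their decay. CCR4-NOT is built on CNOT1, a long scaffold that carries separate modules. The nuclease module pairs a CAF1-type enzyme (CNOT7 or CNOT8) with a CCR4-type enzyme (CNOT6 or CNOT6L). The CNOT2 and CNOT3 proteins form the NOT module, and CNOT9 and the CNOT10-CNOT11 pair occupy further sites. BTG1 and BTG2, the proteins removed in the DKO mice, bind the CAF1-type enzymes, and the comparison asks here whether the mRNAs of the complex itself differed when these partners were absent. In T cells BTG1 and BTG2 are known for restraining exit from quiescence.

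Markers of naive CD4 T cells far outweighed those of other cell types. The 11 markers of naive CD4 T cells summed to 3306 and 3996 CPM (TMM-scaled counts-per-million) in WT and 3886 and 3824 CPM in DKO, Trac being the most abundant of them per length. Small sums came from the 4 NK cell markers (at most 0.353 CPM, with Ncr1 and Gzmb at 0), the 5 erythroid and platelet markers (at most 1.06 CPM) and the 7 myeloid markers (at most 16.4 CPM, with S100a8 and S100a9 at 0). In 3 other lists the sum was higher in both DKO libraries than in both WT libraries. The 5 B cell markers summed to 1.15 and 1.29 CPM in WT and 1.88 and 1.66 CPM in DKO. The 2 CD8 T cell markers summed to 7.18 and 7.51 CPM in WT and 8.60 and 13.2 CPM in DKO, nearly all of it Cd8b1. The 5 regulatory T cell markers summed to 24.3 and 28.7 CPM in WT and to 41.0 and 54.1 CPM in DKO, with none at 0. Of the 5, Tnfrsf18 was the most abundant, at 13.0 and 16.1 CPM in WT and 18.4 and 18.1 CPM in DKO. Foxp3, Ikzf2 and Il2ra were also higher in both DKO libraries, as were 19.8% of all genes tested. Their log2 fold changes were 1.87 (SE 0.41), 1.65 (SE 0.34) and 1.24 (SE 0.35), beside 0.33 (SE 0.18) for Tnfrsf18. Foxp3 had 1.79 and 2.50 CPM in WT and 5.12 and 10.4 CPM in DKO. Ikzf2 had 4.31 and 3.37 CPM in WT and 8.30 and 15.7 CPM in DKO. Ctla4 overlapped (log2 fold change 0.05, SE 0.34). Il2ra encodes CD25, against which the cells were sorted, and had 1.87 and 3.19 CPM in WT and 6.06 and 5.82 CPM in DKO. The lowest adjusted p of the 5 by edgeR was 0.161, for Ikzf2, and 3 of the 5 had an unadjusted p below 0.05, beside 8.18% of all genes tested. The part of such cells in the results below was not tested. Of these genes, those other than Trac, Cd8b1 and Tnfrsf18 were picked after their values were seen. The libraries held 13889894 to 17827631 estimated counts, of which 36.0 and 39.2% in WT and 45.0 and 49.3% in DKO lay on protein-coding genes. In such bulk samples, fewer cells of a type and less RNA per cell cannot be told apart.

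The interchangeable enzymes could be told apart by sequence, which matters because the deposited counts divide reads that fit several transcripts. Between the coding sequences of Cnot7-201 (855 bases without the stop codon) and Cnot8-201 (876 bases), 70.8% of 855 aligned bases were identical. For Cnot6-203 (1671 bases) and Cnot6l-202 (1665 bases) the identity was 73.3% over 1650 aligned bases. The longest identical run was 20 bases in either pair, so no word of 31 bases, the default word length of kallisto, was shared within a pair. The stretches of 120 coding bases around these runs are printed from GENCODE M21 transcripts, 5′ to 3′, with the bases that differ within a pair in capitals. Around its longest identical run, the CAF1 pair differed at 28 of the 120 bases and the CCR4 pair at 24.
Cnot7: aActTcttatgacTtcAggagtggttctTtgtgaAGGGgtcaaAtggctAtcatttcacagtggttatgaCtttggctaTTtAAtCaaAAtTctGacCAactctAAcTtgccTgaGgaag
Cnot8: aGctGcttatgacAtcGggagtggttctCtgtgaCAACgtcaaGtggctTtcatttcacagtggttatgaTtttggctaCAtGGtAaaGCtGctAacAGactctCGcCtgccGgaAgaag
Cnot6: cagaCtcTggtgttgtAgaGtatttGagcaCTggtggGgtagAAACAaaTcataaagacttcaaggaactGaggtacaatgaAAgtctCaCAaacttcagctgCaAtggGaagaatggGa
Cnot6l: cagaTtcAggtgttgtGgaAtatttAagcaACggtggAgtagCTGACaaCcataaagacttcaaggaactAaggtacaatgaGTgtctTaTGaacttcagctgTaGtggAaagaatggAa
On GRCm38 the Cnot7 stretch lies in exon 4 (chromosome 8, 40500752 to 40500812) and exon 5 (40499381 to 40499439) on the minus strand. The Cnot8 stretch lies in exon 4 (chromosome 11, 58113153 to 58113213) and exon 5 (58113950 to 58114008) on the plus strand. The Cnot6 stretch lies in exon 10 (chromosome 11, 49679921 to 49679929) and exon 11 (49677392 to 49677502), and the Cnot6l stretch in exon 10 (chromosome 5, 96082870 to 96082878) and exon 11 (96080025 to 96080135), both on the minus strand.

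Other genes shared up to 16.8% of the 31-base words of a subunit, in Cnot3, but the pseudogene copies listed here took few counts. The processed pseudogenes Gm6158, Gm9207 and Gm18860 held 4.65% of the 31-base words of Cnot1, 10.6% of those of Cnot3 and 11.7% of those of Cnot8, but the first 2 were at 0 counts in every library and Gm18860 at 1.05 to 7.78 counts. Exons of Cnot3, Cnot7 and Cnot9 overlap opposite-strand protein-coding genes, namely Leng1 (133 to 254 estimated counts per library), Zdhhc2 (2.1 to 24.0) and Usp37 (220 to 440). The strand setting of the quantification is not given in the sources used here, so reads in those overlaps cannot be assigned with certainty. Cnot6l and Cnot11 shared no 31-base word with any other gene.

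All 10 subunits were detected, and Cnot1, the scaffold, had the highest TPM in every library. Levels are given as TPM (transcripts-per-million), summed per gene, which corrects for length. Protein-coding genes together took 2.22 to 2.71% of that scale, and the median protein-coding gene that was tested had 0.475 TPM. Cnot1 had 4.13 and 2.93 TPM in WT and 4.28 and 5.003 TPM in DKO. Its mean of 4.09 TPM exceeded that of 93.8% of the 10733 protein-coding genes tested. Cnot6l had 3.08 and 2.43 TPM in WT and 3.48 and 4.66 TPM in DKO, and Cnot3 had 2.998 and 2.37 TPM in WT and 3.02 and 3.45 TPM in DKO. Every library gave the order Cnot1, Cnot6l and Cnot3 from the top.

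Cnot2 had a mean of 2.45 TPM, Cnot7 of 1.70 TPM, Cnot8 of 1.69 TPM and Cnot6 of 1.24 TPM. Cnot9 had a mean of 0.897 TPM and Cnot10 of 0.636 TPM. Cnot11 came last in all 4 libraries, with 0.294 and 0.196 TPM in WT and 0.363 and 0.402 TPM in DKO, and its mean of 0.314 TPM exceeded that of 38.9% of the protein-coding genes tested. The subunits thus spanned a mean of 0.314 to 4.09 TPM, with the CNOT10-CNOT11 module and CNOT9 at the low end.

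Neighbours in this order were compared within each library, which removes what the library shares. The order came from the mean TPM of the same 4 libraries, so the direction of the steps largely follows from it. No test of the steps was run. Cnot1 exceeded Cnot6l by 0.27 on the log2 scale (SD over 4 libraries 0.13), with the same sign in 4 of 4. The steps from Cnot3 to Cnot2 (0.28, SD 0.09), Cnot8 to Cnot6 (0.46, SD 0.10), Cnot6 to Cnot9 (0.43, SD 0.21), Cnot9 to Cnot10 (0.51, SD 0.16) and Cnot10 to Cnot11 (1.05, SD 0.20) also kept their sign in 4 of 4 libraries and exceeded their SD. Cnot6l and Cnot3 did not differ beyond their spread (0.18, SD 0.19), nor did Cnot2 and Cnot7 (0.57, SD 0.65) or Cnot7 and Cnot8 (−0.02, SD 0.46). A short non-coding Cnot7 transcript of 312 bases, Cnot7-204, held 0 estimated counts in WT replicate 1 and 25, 25 and 22 in the others, where it made up 40.6, 40.7 and 31.5% of the TPM of the gene. Cnot7 had 0.971 TPM in WT replicate 1 and 1.89 to 1.99 TPM in the other libraries. Short transcripts weighed on other subunits too. Cnot1-217 (550 bases) had 79 to 118 counts and 28.4 to 39.2% of the TPM of Cnot1. Cnot9-202 (831 bases) had 46 to 77 counts and 51.1 to 57.1% of the TPM of Cnot9.

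**Figure D1:**
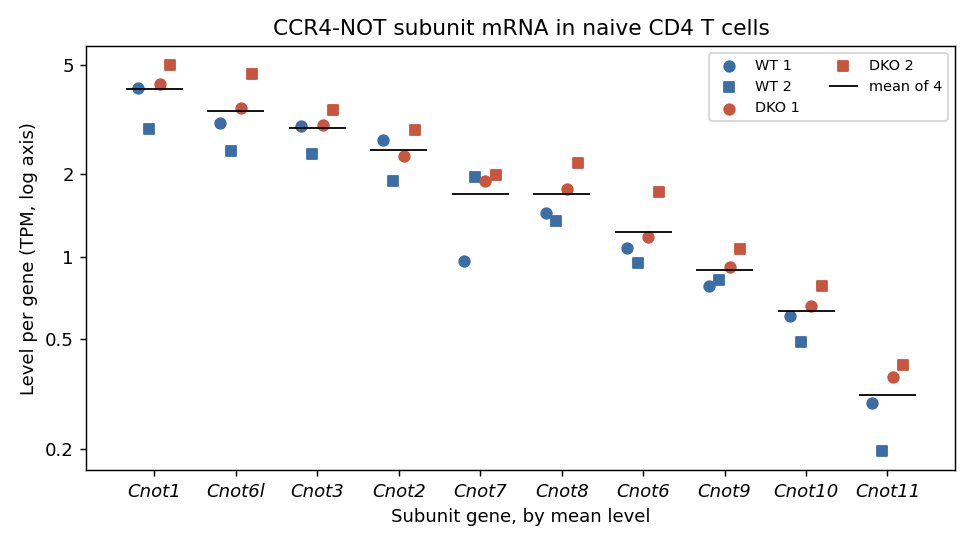
Level of each subunit gene in TPM on a log axis, 1 point per library (blue WT, red DKO; circles replicate 1, squares replicate 2) and a line at the mean of 4. Cnot1 is highest and Cnot11 lowest in every library, from 5.003 down to 0.196 TPM, and the low Cnot7 point is WT replicate 1.

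The order of the middle and upper subunits depended on how length was handled. With estimated counts per kilobase of the longest protein-coding transcript, a measure chosen after the data were seen, Cnot3 took rank 1, Cnot1 rank 2, Cnot8 rank 3 and Cnot6l rank 5. With protein-coding transcripts alone, Cnot6l took rank 1, Cnot1 rank 2 and Cnot7 rank 7. Cnot11 ranked last and Cnot9 and Cnot10 took the 2 places above it under all 4 measures. The 3 protein-coding genes closest to Cnot1 in level, by the mean absolute difference of log2 TPM over the 4 libraries, were Akna (0.0439), 9930111J21Rik2 (0.0497) and Map4k4 (0.0584). For Akna this meant 3.91 and 2.80 TPM in WT and 4.26 and 5.07 TPM in DKO.

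No subunit mRNA passed the test between DKO and WT. Changes were tested on counts scaled by the trimmed mean of M-values (TMM), with edgeR's quasi-likelihood test and Benjamini-Hochberg adjustment over 12863 genes, of which 16 (0.124%) were called, 0.0544% higher and 0.07% lower. Of the 10 subunits, 0 were called, 0 had an unadjusted p below 0.05 (8.18% of all genes did), and adjusted p lay between 0.756 and 0.973. DESeq2 likewise called 0 of 10, with 0 at an unadjusted p below 0.05, against 1.46% of genes called. The log2 fold changes (DKO minus WT) ran from −0.23 to 0.28 with a median of 0.07, beside a median of −0.01 over all genes tested. The same count of 0 subunits stood beside 0.163% of genes called with DESeq2 size factors, 1.52% without a filter on low counts and 0.478% with protein-coding genes only. It also stood beside 0.0622% with an effective length offset, 0.128% with protein-coding transcripts only and 1.1% with the replicate number in the model. On log2(TPM + pseudocount), limma called 0.127% of genes with a pseudocount of 1, 0.0255% with 0.1 and 0% without a filter, and 0 subunits each time. Leaving out each library in turn gave 1.18, 0.556, 0.366 and 0.293% of genes and 0 subunits, in the order WT and then DKO replicates 1 and 2. The median absolute change was 0.10 for the subunits, 0.22 for all genes and 0.19 for protein-coding genes, whose median change was 0.02. These groups were not matched for count level. By contrast Btg1 had 530 and 470 CPM in WT and 6.06 and 5.77 CPM in DKO, and Btg2 had 92.9 and 92.1 CPM in WT and 0.294 and 0.323 CPM in DKO.

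**Figure D2:**
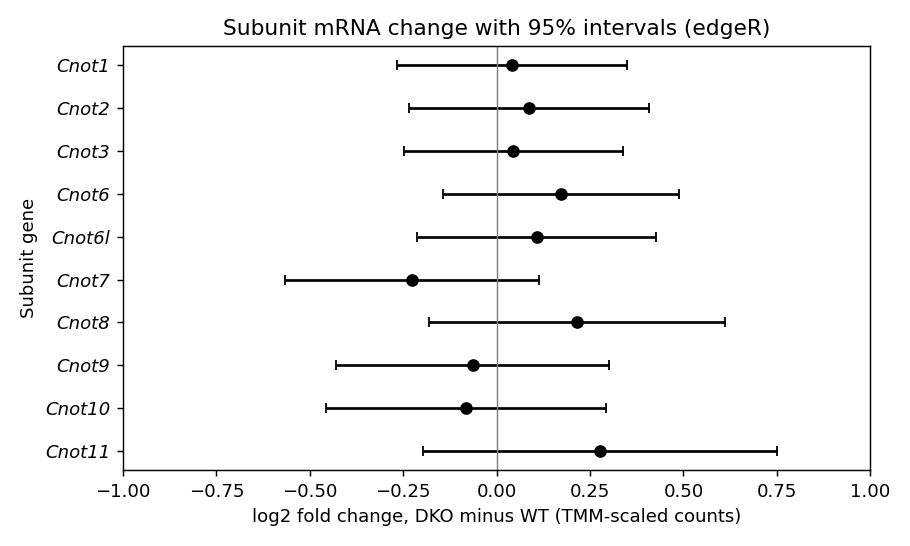
The log2 fold change of each subunit gene (DKO minus WT, TMM-scaled counts), as points with 95% intervals from edgeR, n = 2 libraries per group. All 10 intervals include 0, and the widest, that of Cnot11, runs from −0.20 to 0.75.

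With TMM the scaffold and Cnot3 had the fold changes nearest to 1 of the 10 subunits, both 1.03-fold. In other fits this order differed. Cnot1 (ENSMUSG00000036550.16, chromosome 8, 95719451 to 95807464, minus strand) had 162 and 150 CPM in WT and 154 and 167 CPM in DKO. The groups overlapped, and the log2 fold change of 0.04 (SE 0.14) had a 95% interval of −0.27 to 0.35. On the linear scale the interval ran from 0.831-fold to 1.27-fold. An intron of Cnot1 holds the snoRNA gene Gm26493 (95746060 to 95746195, same strand), noted here after its values were seen, with 34 and 32 counts in WT against 19 and 6 in DKO. Its log2 fold change of −1.92 (SE 0.71) did not pass edgeR's test (adjusted p = 0.522).

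The NOT module also overlapped between the groups. Cnot2 (ENSMUSG00000020166.15, chromosome 10, 116485161 to 116581511, minus strand) had 39.6 and 36.9 CPM in WT and 38.0 and 43.2 CPM in DKO. Cnot3 (ENSMUSG00000035632.16, chromosome 7, 3645268 to 3661109, plus strand) had 54.9 and 57.8 CPM in WT and 57.5 and 58.7 CPM in DKO. The intervals were −0.23 to 0.41 around 0.09 for Cnot2 and −0.25 to 0.34 around 0.04 for Cnot3, on the log2 scale.

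Among the CCR4-type nucleases, Cnot6 (ENSMUSG00000020362.13, chromosome 11, 49671503 to 49712723, minus strand) had 46.1 and 50.8 CPM in WT and 51.6 and 57.4 CPM in DKO. Both DKO values lay above both WT values, with a log2 fold change of 0.17 (SE 0.14; interval −0.14 to 0.49) and adjusted p = 0.815 by edgeR. Its paralogue Cnot6l (ENSMUSG00000034724.18, chromosome 5, 96070333 to 96164171, minus strand) had 99.7 and 85.5 CPM in WT and 95.2 and 104 CPM in DKO. These overlapped, with a log2 fold change of 0.11 (SE 0.14; interval −0.21 to 0.43).

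The CAF1-type nucleases, which BTG proteins contact, did not pass the test either. Cnot7 (ENSMUSG00000031601.16, chromosome 8, 40492540 to 40515847, minus strand) had 22.6 and 24.5 CPM in WT and 20.4 and 19.9 CPM in DKO. Both DKO values lay below both WT values, and the log2 fold change was −0.23 (SE 0.15; interval −0.57 to 0.11) with adjusted p = 0.756 by edgeR. The direction was not the same in other fits. The change was 0.0050 with an effective length offset and 0.29 to 0.46 in limma fits on log2(TPM + pseudocount), and the TPM given above overlapped. In limma fits with a minimum of 1 TPM, the median of all genes was itself 0.25 (pseudocount 1) and 0.37 (pseudocount 0.1). Relative to those medians Cnot7 was at 0.036 and 0.095. Without the minimum, the median was 0.0099 and Cnot7 was at 0.28 relative to it. Cnot8 (ENSMUSG00000020515.13, chromosome 11, 58104153 to 58118594, plus strand) had 25.6 and 35.4 CPM in WT and 34.5 and 36.1 CPM in DKO. The low value was WT replicate 1, the groups overlapped, and the log2 fold change was 0.21 (SE 0.17; interval −0.18 to 0.61) with adjusted p = 0.815 by edgeR. Without WT replicate 1 it was −0.0048, and without WT replicate 2 it was 0.48.

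The remaining subunits were the least abundant. Cnot9 (ENSMUSG00000026174.9, chromosome 1, 74506058 to 74530842, plus strand), whose product is a docking site for proteins that recruit the complex to mRNAs, had 17.5 and 19.9 CPM in WT and 18.1 and 17.6 CPM in DKO. Cnot10 (ENSMUSG00000056167.7, chromosome 9, 114585878 to 114640184, minus strand) had 19.3 and 17.3 CPM in WT and 16.4 and 18.2 CPM in DKO. Both overlapped, with log2 fold changes of −0.06 (SE 0.16) and −0.08 (SE 0.16). Cnot11 (ENSMUSG00000003135.15, chromosome 1, 39534992 to 39546889, plus strand) had 10.6 and 8.20 CPM in WT and 11.5 and 11.3 CPM in DKO. Its DKO values lay above its WT values, with a log2 fold change of 0.28 (SE 0.21) and adjusted p = 0.800 by edgeR, on 95 to 245 estimated counts per library.

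By overlap alone, 3 of the 10 subunits had groups that did not overlap, Cnot6 and Cnot11 higher and Cnot7 lower in DKO. Over all genes tested this held for 38.6%, with 19.8% higher and 18.8% lower, so the share among the subunits was not above the background.

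The sign of the change of some subunits depended on how the libraries were scaled, because the median of all genes did. That median was −0.01 with TMM, 0.33 with total counts and 0.90 when libraries were scaled to 7SK, 7SL, RNase MRP and RNase P RNAs, made by RNA polymerase III. All 10 subunits lay above 0 under the latter 2 scalings, and Cnot7, Cnot9 and Cnot10 lay below 0 under TMM. Relative to the median of all genes, Cnot7 was at −0.21, −0.21 and −0.20 and Cnot11 at 0.29, 0.28 and 0.26 in the same order. The subunit median stood 0.08, 0.09 and 0.09 above that of all genes. Rescaling a library moves all its genes together, so these near-equal offsets are not separate observations. With protein-coding transcripts only, the subunit median was at −0.016 relative to that of all genes, and 5 of 10 subunits lay above the latter. With total counts 0 subunits were called while 2.02% of genes were, and with polymerase III scaling 0 were called while 3.84% were. At an unadjusted p below 0.05 by edgeR these scalings gave 4 and 8 subunits, beside 2932 and 5394 of the 12863 genes tested. The lowest adjusted p of a subunit by edgeR was 0.123 and 0.0625. The protein-coding share of counts was also higher in both DKO libraries, as given above, and its part in this was not tested.

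**Figure D3:**
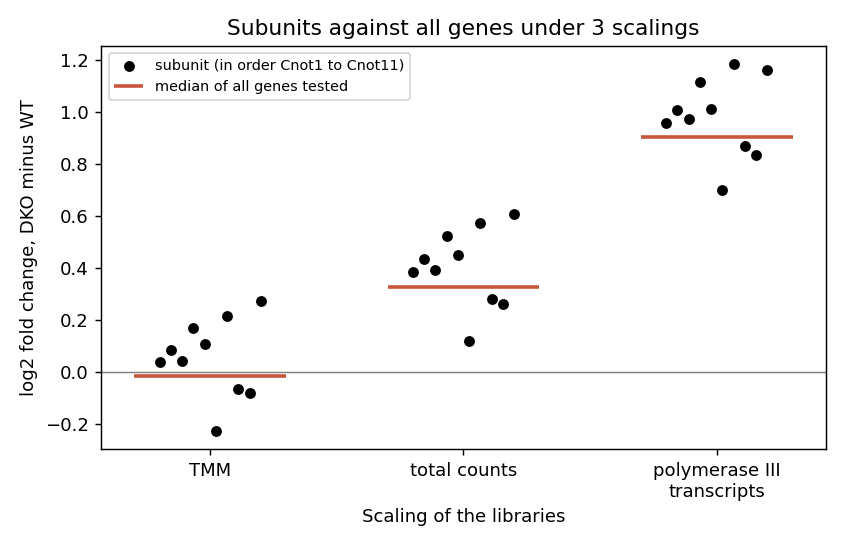
Log2 fold changes (DKO minus WT) of the 10 subunits, in order from Cnot1 to Cnot11, under 3 scalings of the libraries, with the median of all genes tested as a red line. The subunits move up with that median, from −0.01 to 0.33 and 0.90, and 7 of 10 lie above it under each scaling. Rescaling a library moves all its genes together, so this repeat is not separate support.

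The 2 enzymes of each pair were compared as a ratio within each library, which does not depend on scaling. In TPM, Cnot6 stood to Cnot6l at log2 ratios of −1.52 and −1.35 in WT and −1.56 and −1.43 in DKO, so Cnot6l was the more abundant CCR4-type transcript in 4 of 4 libraries. Short transcripts with few reads added to this: Cnot6l-206 (421 bases, 19 to 52 counts) made up 16.3 to 29.3% of Cnot6l TPM. Cnot6l-209 (232 bases, 6 to 19 counts) made up 8.04 to 23.2%. Per kilobase of the longest protein-coding transcript the ratios were smaller in size, at −0.53 and −0.18 in WT and −0.31 and −0.28 in DKO. In TPM the groups overlapped, and the difference of −0.06 was smaller than the pooled SD of 0.11 and lay between −0.14 and 0.03 when single libraries were omitted. For Cnot7 against Cnot8 the log2 ratio was −0.57 and 0.53 in WT against 0.10 and −0.15 in DKO, a difference of −0.004 against a pooled SD of 0.56, which became −0.55 without WT replicate 1 and 0.55 without WT replicate 2. The summed CCR4-type to summed CAF1-type ratio was 0.79 and 0.03 in WT against 0.35 and 0.61 in DKO, a difference of 0.07 against a pooled SD of 0.40, which became 0.45 and −0.31 without the same libraries. Exact two-sided permutation tests gave p = 0.667, 1 and 1 for these 3 ratios, each 1 after Benjamini-Hochberg adjustment, and with 2 against 2 libraries the smallest p possible is 0.333.

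The Cnot7 to Cnot8 ratio looked different in other quantities, though its shift stayed within the pooled SD of 0.56 found in TPM. In estimated counts, not per length, its log2 value was −0.18 and −0.53 in WT against −0.76 and −0.86 in DKO. Both DKO libraries lay below both WT libraries, and the difference of −0.46 exceeded the pooled SD of 0.18. With TPM of protein-coding transcripts alone it was −0.93 and −1.48 in WT against −1.57 and −1.75 in DKO, again without overlap, a difference of −0.46 against a pooled SD of 0.29. The exact two-sided permutation p was 0.333 in both cases, the smallest it can give, and 1 after adjustment over the 3 ratios. Among protein-coding transcripts Cnot8 was the more abundant CAF1-type mRNA in 4 of 4 libraries.

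**Figure D4:**
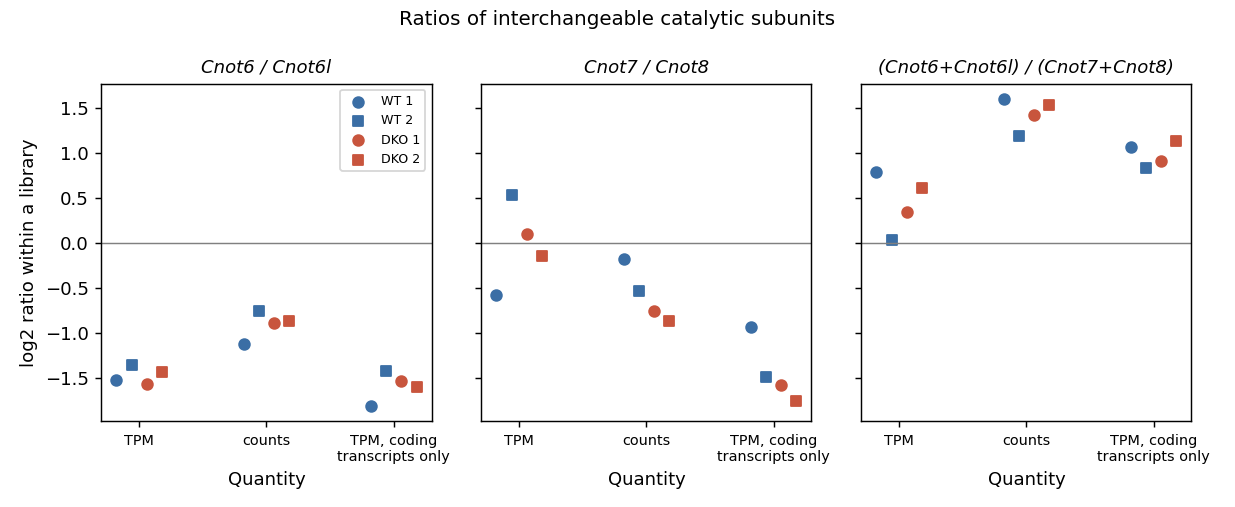
Log2 ratios within each library (blue WT, red DKO; circles replicate 1, squares replicate 2) for the CCR4-type pair, the CAF1-type pair and the sums of the pairs, in TPM, in estimated counts and in TPM of protein-coding transcripts. The CAF1-type pair overlaps between groups in TPM and not in the other quantities, where the DKO points lie lower (−0.46 in both).

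The subunits differed in how much of their RNA lay on transcripts annotated as protein-coding. Across the 10 genes the deposited tables listed 89 transcripts. Cnot11 had 100% of its estimated counts on protein-coding transcripts in all 4 libraries, and Cnot8 had 98.5 to 100%. Cnot1 had 64.8 and 70.4% in WT and 59.4 and 63.2% in DKO, and 25.8 to 31.8% of its counts lay on transcripts annotated for nonsense-mediated decay, a pathway that degrades mRNAs with an early stop codon. Most of the latter fell on Cnot1-216, a transcript of 7479 bases with 547 and 416 counts in WT against 802 and 1062 in DKO. These counts are not scaled for depth, and the DKO libraries were larger. In the transcript fit given below, the scaled log2 fold change of Cnot1-216 was 0.37 (SE 0.15), with adjusted p = 0.9997 by edgeR. The median protein-coding share over all genes with both kinds of transcript was 90.0%, beside 82.2% for the subunits.

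Between the genotypes these shares did not overlap in 2 of the 10 subunits, against 27.7% of the 7765 protein-coding genes with both kinds of transcript. The protein-coding share of Cnot2 was 60.5 and 66.1% in WT against 75.7 and 77.5% in DKO, both DKO values being higher. That of Cnot1 was lower in DKO, with a difference of means of −6.32 percentage points, while its share on nonsense-mediated decay transcripts was higher (27.6 and 25.8% against 31.8 and 30.6%). Cnot3 varied most among libraries, with 72.7 and 93.6% in WT and 78.7 and 60.8% in DKO. Its intron-retaining transcript Cnot3-205 had 95 and 12 counts in WT against 176 and 379 in DKO, not scaled for depth, so that WT replicate 2 was lowest and DKO replicate 2 highest. In the transcript fit the scaled log2 fold change of Cnot3-205 was 1.84 (SE 0.89), with adjusted p = 0.9997 by edgeR. Summed over the 10 subunits, the protein-coding share of TPM was 70.8 and 74.6% in WT against 73.5 and 72.8% in DKO, a difference of 0.386 points against an SD of 2.69 in WT, and −1.52 to 2.29 points with single libraries omitted. As a share of counts the summed difference was −1.49 points, also with overlap.

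Transcripts taken as units gave 0 calls among the 53 subunit transcripts tested, in a fit added after the data were seen that called 0.0073% of 27379 transcripts. At an unadjusted p below 0.05 there were 2 subunit transcripts, Cnot2-201 and Cnot1-204, against 5% of all transcripts, and the lowest adjusted p by edgeR among the subunit transcripts was 0.925. The assignment of reads among overlapping transcripts of a gene is an estimate whose error is not in the deposited values.

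**Figure D5:**
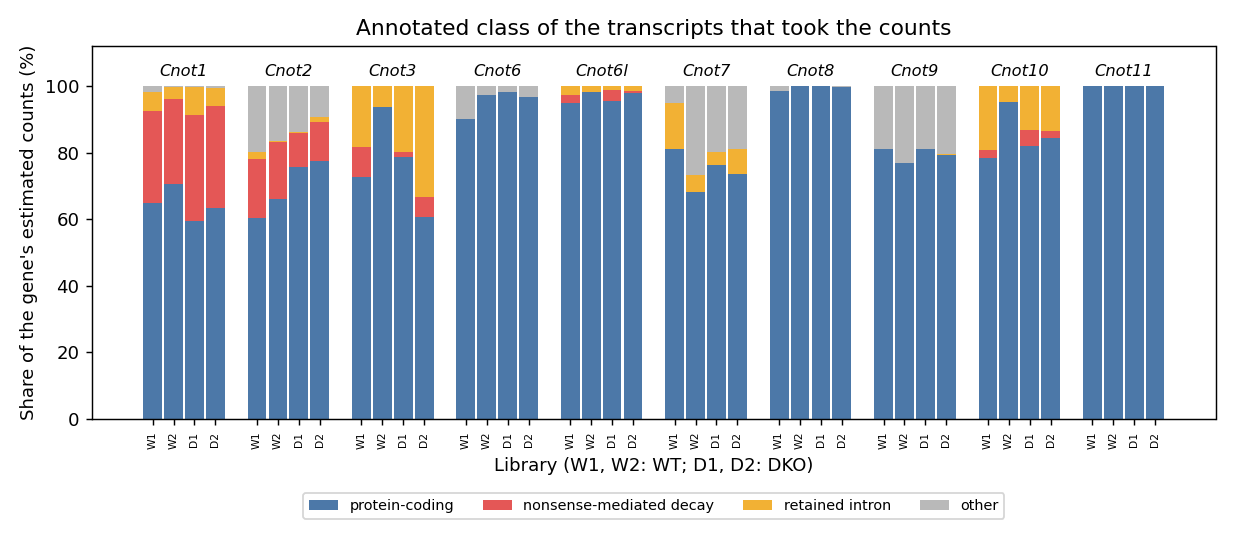
Share of the estimated counts of each subunit gene by annotated transcript class in each library (W1 and W2 WT, D1 and D2 DKO), as stacked bars from 0 to 100%. Cnot1 carries a large share on nonsense-mediated decay transcripts in every library (25.8 to 31.8%), and Cnot8 and Cnot11 are almost wholly protein-coding.

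The genes that work with the complex were taken from 6 lists. Among BTG and TOB adaptors, 2 of 5 tested genes were lower, the deleted Btg1 and Btg2, and 0 were higher (the same 0.124% background). Tob1, a related adaptor that binds the same enzymes and was picked after its values were seen, had 20.2 and 19.2 CPM in WT and 30.7 and 28.8 CPM in DKO, with a log2 fold change of 0.59 (SE 0.14) and adjusted p = 0.228 by edgeR. It was called with total counts, with polymerase III scaling and without a filter on low counts. Cnot4, a ubiquitin ligase named for the complex but not a stable subunit in mammals, had 33.0 and 28.7 CPM in WT and 32.3 and 24.3 CPM in DKO, with overlap.

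Of the other deadenylases, 0 of 8 tested genes were called in either direction. Noct, whose product nocturnin is related to the CCR4-type enzymes but acts on NADP(H), had 343 and 219 CPM in WT and 179 and 162 CPM in DKO, a log2 fold change of −0.72 (SE 0.21) with adjusted p = 0.363 by edgeR. WT replicate 1 held the highest value. Noct was called without a filter on low counts and without WT replicate 2. Pan3, a subunit of the PAN2-PAN3 deadenylase that trims tails before CCR4-NOT, had 79.3 and 64.7 CPM in WT and 63.1 and 72.9 CPM in DKO, with overlap.

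The poly(A)-binding proteins and their partners had 0 of 6 called and a median log2 fold change of −0.13. Pabpc1, the main cytoplasmic poly(A)-binding protein, had 840 and 890 CPM in WT and 802 and 718 CPM in DKO (log2 −0.19, SE 0.17). Paip1, which binds PABPC1 and promotes translation, had 28.9 and 23.7 CPM in WT and 18.7 and 19.1 CPM in DKO, with a log2 fold change of −0.48 (SE 0.16) and adjusted p = 0.451 by edgeR. Pabpn1, the nuclear poly(A)-binding protein, was at −0.07 (SE 0.15).

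Proteins that bring the complex to chosen mRNAs had 0 of 20 called and a median of 0.004. Zfp36l2, which binds AU-rich elements, had 341 and 375 CPM in WT and 298 and 294 CPM in DKO (log2 −0.27, SE 0.15). Pum2, a PUF-family RNA-binding protein, was at 0.17 (SE 0.14) and Ago1, an Argonaute of the miRNA pathway, at 0.35 (SE 0.16). The decapping and later decay factors had 0 of 18 called and a median of −0.08. Ddx6, a helicase that binds CNOT1, had 228 and 223 CPM in WT and 199 and 182 CPM in DKO (log2 −0.24, SE 0.14), Lsm6 of the LSM1-7 ring was at −0.52 (SE 0.19) with adjusted p = 0.512 by edgeR, and Lsm14a, a partner of DDX6, was at 0.08 (SE 0.14).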

How the data were processed

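The submitters' processing notes name kallisto, mm10 and GRCm38. Its version and strand setting and the annotation used are not stated there. The deposited estimated counts per transcript carry no correction for depth or length, and the TPM had been scaled by the authors for effective length, per the file headers. Lengths and effective lengths as deposited are in bases.

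Of 126782 transcripts, 125182 matched GENCODE M21 (GRCm38) once version suffixes were removed, and 97.0% of these had the length of that release. The 1600 others held 0.822 to 0.852% of the counts and were left out. Estimated counts were summed per gene and rounded. The 12863 genes passing filterByExpr entered edgeR 4.0.16 under R 4.3.3 (TMM, robust quasi-likelihood F test on genotype, Benjamini-Hochberg at 0.05). The SE was derived from the log2 change and F, and 95% intervals use the t distribution with edgeR's total degrees of freedom. At 3 counts a gene had 0.139 to 0.259 CPM of the TMM-scaled library, a floor that covers counting error only. Alternatives used DESeq2 1.42.0, limma 3.58.1, other scalings, filters and quantities, and each library left out in turn. The functions were tested on simulated data. Coding sequences were aligned with Biopython 1.88.

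The named genes were the subunits, Btg1, Btg2 and Cnot4. From each list of pathway genes the rule took called genes, the 2 highest in mean TPM and the smallest unadjusted p at 5 CPM or more, and it added the 3 genes closest to the most abundant subunit and the most abundant gene of each marker list. Members and lists were chosen with earlier results of these data known.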

Additional observations from a re-analysis of the deposited data

How the results depend on the processing

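The count of subunits called was 0 under all 16 alternatives, the lowest adjusted p being 0.0625 with polymerase III scaling. In the 3 limma fits on log2(TPM + pseudocount), those with a minimum of 1 TPM tested 7 subunits. The fit without a filter called neither of the deleted genes Btg1 and Btg2, and that with a pseudocount of 0.1 called Btg1 only. The absence of subunit calls in those fits therefore says little. The log2 fold changes of Cnot6, Cnot6l and Cnot11 kept their sign in every alternative that tested them. Cnot1 changed to −0.15 and Cnot3 to −0.27 with protein-coding transcripts only. With the effective length offset Cnot2 was at −0.17, Cnot3 at −0.11, Cnot7 at 0.0050 and Cnot10 at 0.016. With total counts Cnot7, Cnot9 and Cnot10 were at 0.12, 0.28 and 0.26, and with polymerase III scaling at 0.70, 0.87 and 0.83. By limma Cnot7 was at 0.29 with a pseudocount of 1, with or without the filter on low values, and at 0.46 with 0.1, while Cnot9 and Cnot10 were at 0.14 and 0.15 without the filter. With single libraries omitted, the ranges were −0.0048 to 0.48 for Cnot8, −0.15 to 0.043 for Cnot9 and −0.14 to 0.010 for Cnot10. The median of all genes tested was 0.33 with total counts, 0.90 with polymerase III scaling and −0.01 with the effective length offset. In the limma fits it was 0.25 with a pseudocount of 1, 0.37 with 0.1 and 0.0099 without the filter. Beyond these shifts of the median, the cause of the changes was not tested.

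The Cnot6 to Cnot6l difference was 0.060 in estimated counts and also 0.060 per kilobase of the longest protein-coding transcript, in place of −0.06. Pathway genes called were 4 with polymerase III scaling, 4 without a low count filter, 1 with limma at a pseudocount of 0.1 and 0 with limma without a filter, in place of 2, and 2 to 3 when each library was left out. Over all genes the 16 calls became 260 with total counts, 494 with polymerase III scaling, 188 with DESeq2, 395 without a filter, 51 with protein-coding genes only, 8 with the length offset, and 5, 1 and 0 with the limma fits (2482 at an unadjusted p below 0.05 in the last), and 40 to 165 when each library was left out. Of the 9 neighbour steps in the order of levels, 6 to 9 kept their direction under the alternatives.

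With the replicate number as a block, 0 subunits were called and 142 genes in all. The deviations of same-numbered libraries from their group means correlated at −0.316, and the labels do not say whether the numbers mark pairs of mice, so pairing by number is unknown. Depth limited Cnot11 most, at 95 to 245 counts per library.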
